A study of Mus musculus with 18 samples.

Results

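The Schlafen genes of the mouse were examined across 18 RNA sequencing libraries of CD8+ T cells. The members were the rows of the deposited gene table whose Ensembl identifiers carry the symbols Slfn1, Slfn2, Slfn3, Slfn4, Slfn5, Slfn8 and Slfn9 in GENCODE M21, which made 7 of 55536 genes. The rule used gene symbols only, but it was set with earlier results of these data known. The libraries fell into 2 labelled Tra2b knockout, 8 labelled control, from cells given a scrambled sequence, and 8 labelled naive, from day 0. All groups share the OT-I genotype, a transgenic T cell receptor specific for the ovalbumin peptide SIINFEKL, and all cells came from spleen and lymph nodes. Knockout and control cells came from day 4 of a stimulation with SIINFEKL, given with anti-OX40 and anti-41BB antibodies that engage costimulatory receptors. The labels give neither the age of the mice nor whether libraries of a group came from separate animals, so every p-value below measures the spread between these libraries only, which may be technical.

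Schlafen proteins restrain growth or act on RNA, and the family is known in T cells for its link to quiescence, the resting state of a cell that has not met antigen. The short members, Slfn1 and Slfn2, hold little beyond the shared core. The founding member Slfn1 slows the growth of thymocytes when it is overproduced, and mutation of Slfn2 in the mouse leaves T cells unable to rest and prone to die once activated. SLFN2 also binds transfer RNAs and protects them from cleavage during activation. The intermediate members are Slfn3, studied mainly in the rodent gut, and Slfn4, an interferon-induced gene of myeloid cells. The long members Slfn5, Slfn8 and Slfn9 carry a further helicase-like domain, and a human relative, SLFN13, cuts transfer and ribosomal RNA.

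Total counts per library were 79197461 and 93495846 in the knockout libraries, 73735681 to 93972513 across controls and 68249844 to 86932452 across naive libraries. Levels are CPM, the count relative to a library total scaled by TMM over all 18 libraries, and levels of different genes are compared only as CPM per kilobase of merged exons. Tra2b, the targeted splicing regulator, stood at 361 and 370 CPM in the libraries labelled knockout, 338 to 526 CPM across controls and 248 to 352 CPM across naive libraries. Its fold change between knockout and control did not pass (log2 fold change -0.34, SE 0.13, adjusted p = 0.0899, edgeR), and a gene count also holds reads of edited transcripts, so the libraries are called knockout by their label. Marker genes of CD8 T cells summed to 4599 to 5292 CPM in knockout, 4961 to 5966 CPM in control and 7354 to 8741 CPM in naive libraries, with none of the 8 at 0. Markers of other cells differed between groups, and not in 1 direction. CD4 T cell markers summed to 66.0 to 83.2 CPM in knockout, 36 to 68.3 CPM in control and 19.7 to 31.5 CPM in naive libraries. NK cell markers summed to 576 to 657 CPM in knockout, 168 to 518 CPM in control and 463 to 884 CPM in naive libraries. Dendritic cell markers summed to 60.9 to 68.8 CPM in knockout, 56.5 to 113 CPM in control and 478 to 1161 CPM in naive libraries, and Siglech, which marks plasmacytoid cells, was at 0 in every knockout and every control library. B cell markers summed to 670 to 835 CPM in knockout, 396 to 476 CPM in control and 738 to 1199 CPM in naive libraries, with Ebf1 at 0 in the knockout libraries. Differences from the naive group therefore cannot be told apart from a difference in the make-up of the libraries.

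The 7 genes lie together on chromosome 11 in GRCm38, between 82951349 and 83215154, a stretch of 263.8 kb. Slfn5 (ENSMUSG00000054404.13) occupies 82951349 to 82964840 on the plus strand. Slfn9 (ENSMUSG00000069793.12, 82978390 to 82991830) and Slfn8 (ENSMUSG00000035208.16, 83002158 to 83020810) follow on the minus strand. The minus-strand pseudogene Slfn10-ps (ENSMUSG00000072621.13, 83028130 to 83040042) stands after them and is no member. On the plus strand follow Slfn2 (ENSMUSG00000072620.3, 83065112 to 83070678), Slfn1 (ENSMUSG00000078763.2, 83116849 to 83122670), Slfn4 (ENSMUSG00000000204.16, 83175186 to 83190216) and Slfn3 (ENSMUSG00000018986.10, 83191330 to 83215154). The classes show in the coding sequence, which without the stop codon is 1011 bases long in Slfn1 and 1134 in Slfn2, 1920 in Slfn3 and 1806 in Slfn4, 2652 in Slfn5 and 2730 in both Slfn8 and Slfn9. Aligned end to end, the coding sequences of Slfn8 and Slfn9 were 92.7% identical, those of Slfn3 and Slfn4 85.3% and those of Slfn1 and Slfn2 63.0%.

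Because Slfn8 and Slfn9 are near copies whose transcript levels went in opposite directions between control and naive libraries, the 250 bases before their annotated starts are shown whole. RefSeq promoters (GRCm38.p6, 250 bases before to 50 after a start) were found for 7 of 7 members. Over those 300 bases Slfn8 and Slfn9 were 80.5% identical, whereas the other 20 pairs of members lay between 40.8 and 48.8%. The stretches are chr11:83020811-83021060 for Slfn8 and chr11:82991831-82992080 for Slfn9, both on the minus strand and written 5′ to 3′ along the gene. Capitals mark the core of the interferon-stimulated response element, GAAA and GAAA with 2 free bases between them, searched on both strands. It lies here on the strand opposite to the gene, 48 bases before the start used for Slfn8 and 45 before that of Slfn9. Slfn8 has another RefSeq start, whose promoter (chr11:83020673-83020972) also holds the core, but farther before that start.
Slfn8: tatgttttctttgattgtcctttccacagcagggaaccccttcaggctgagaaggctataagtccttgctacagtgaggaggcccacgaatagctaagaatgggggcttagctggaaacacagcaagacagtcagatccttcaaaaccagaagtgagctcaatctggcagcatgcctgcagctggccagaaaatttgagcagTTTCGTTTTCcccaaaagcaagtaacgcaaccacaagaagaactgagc
Slfn9: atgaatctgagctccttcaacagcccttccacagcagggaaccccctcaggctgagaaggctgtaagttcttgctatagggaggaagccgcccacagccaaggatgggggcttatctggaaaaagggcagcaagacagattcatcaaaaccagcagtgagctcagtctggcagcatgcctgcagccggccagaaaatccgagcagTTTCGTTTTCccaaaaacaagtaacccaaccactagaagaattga

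The same core was found in the Slfn5 promoter, 155 bases before the start and on the strand of the gene, and in no other member. The RefSeq start used for Slfn5 lies inside the GENCODE span given above, so this window falls within that span and not before it. It occurs in 3.44% of 32851 promoters. The related core of the gamma-activated site, TTCNNNGAA on both strands, was in none of the 7 and in 8.3% of all promoters. The Slfn5 window (chr11:82951922-82951981, plus strand) is shown with the core in capitals.
Slfn5: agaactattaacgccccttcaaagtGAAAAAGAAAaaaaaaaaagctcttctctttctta

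The 4 short and intermediate genes lack that core in these windows but share 9 letters, ACTTCCTGG, which was noticed on reading the sequences and then searched on both strands. These letters stand in 0.843% of all promoters and in none of the 3 long members. They lie 74 bases before the start in Slfn1, 55 in Slfn2, 42 in Slfn3 and 73 in Slfn4, on the strand of the gene each time. The windows, all on the plus strand, are chr11:83116721-83116779 for Slfn1, chr11:83065032-83065090 for Slfn2, chr11:83191263-83191321 for Slfn3 and chr11:83175088-83175146 for Slfn4, with the shared letters in capitals.
Slfn1: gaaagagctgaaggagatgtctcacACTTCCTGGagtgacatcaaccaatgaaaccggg
Slfn2: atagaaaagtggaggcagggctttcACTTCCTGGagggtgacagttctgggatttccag
Slfn3: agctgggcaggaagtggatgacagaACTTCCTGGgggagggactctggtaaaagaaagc
Slfn4: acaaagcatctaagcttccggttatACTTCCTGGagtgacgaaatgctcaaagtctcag

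Per kilobase, Slfn2 was the most abundant member in every group. It averaged 146 ± 6.37 CPM per kb in knockout (SD, n = 2), 184 ± 35.1 in control (SD, n = 8) and 331 ± 39.7 in naive libraries (SD, n = 8). Below it the order differed. In the knockout libraries Slfn8 came next at 12.1 ± 1.86 CPM per kb, then Slfn9 at 7.92 ± 2.46 and Slfn1 at 7.38 ± 0.513, whose ranges overlapped, then Slfn3 at 2.87 ± 0.657, Slfn5 at 0.759 ± 0.0137 and Slfn4 at 0.397 ± 0.0608. In the controls Slfn1 came second at 26.8 ± 11.5 CPM per kb. Slfn8 at 6.56 ± 2.27 and Slfn9 at 5.70 ± 0.889 CPM per kb overlapped there, as did Slfn5 at 0.870 ± 0.470 and Slfn4 at 0.103 ± 0.0911, and Slfn3 stood between the pairs at 2.45 ± 0.264. In the naive libraries Slfn1 was again second, at 147 ± 28.5 CPM per kb, and Slfn8 next, at 42.4 ± 8.67. Slfn5 at 5.68 ± 1.85 and Slfn9 at 2.81 ± 0.326 CPM per kb overlapped, and Slfn3 at 1.38 ± 0.214 and Slfn4 at 0.270 ± 0.168 came last. The remaining neighbours in each order had ranges that did not overlap. Slfn3 was divided by 3411 bases of merged exons, while its protein-coding transcripts have 1816 and 1966 bases. Its levels per kilobase are therefore low estimates, and its place in the order was not tested on those lengths.

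**Figure D1:**
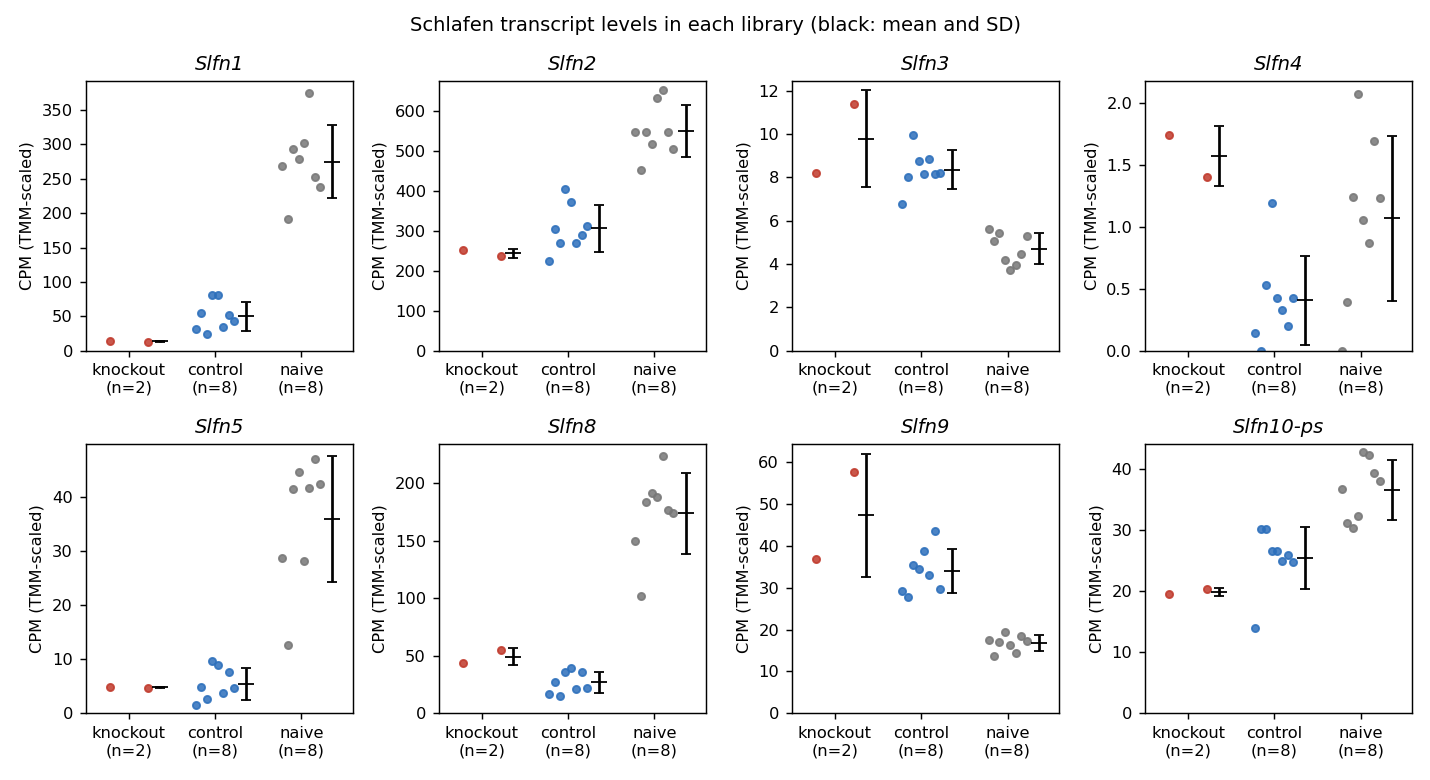
TMM-scaled CPM of each Schlafen gene and of the pseudogene Slfn10-ps in the 2 knockout, 8 control and 8 naive libraries, 1 dot per library, with the group mean and SD in black. Slfn1, Slfn2, Slfn5 and Slfn8 have their highest dots in the naive group, while Slfn3 and Slfn9 have their lowest there.

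In stimulated control cells 4 members stood below the naive level and 2 above it. Of the 7 members, all of which passed the filter on low counts, Slfn1, Slfn2, Slfn5 and Slfn8 were called lower and Slfn3 and Slfn9 higher, and only Slfn4 did not pass (edgeR's quasi-likelihood test, called at an adjusted p under 0.05 by Benjamini-Hochberg over all genes tested). Most genes differed between these groups, since 71.5% of 17078 genes were called, 39.0% as lower and 32.5% as higher. The 2 groups did not overlap for 6 of the 7 members and for 42.3% of all genes tested, so the count of members is read against a high background. The median log2 fold change was -1.34 over the members and -0.08 over all genes. In bulk RNA, fewer cells with a transcript and less of it per cell cannot be told apart.

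Among the short members, Slfn1 ran from 24.1 to 80.6 CPM across controls (median 47.1) and from 192 to 374 CPM across naive libraries (median 274). Even the highest control lay well under the lowest naive library. The log2 fold change was -2.46 (SE 0.23, adjusted p = 2.07e-08, edgeR), a level 5.50-fold lower in control. Slfn2, whose product keeps T cells at rest, ran from 226 to 405 CPM across controls (median 297) and from 452 to 654 CPM across naive libraries (median 547). These groups did not overlap either, but the difference was smaller, with a log2 fold change of -0.85 (adjusted p = 6.96e-07, edgeR, SE 0.10). The fitted level of Slfn2 in control was 0.556 of that in naive libraries.

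Of the intermediate members, Slfn3 ran from 6.77 to 9.95 CPM across controls (median 8.19) and from 3.72 to 5.61 CPM across naive libraries (median 4.76). All controls lay above all naive libraries, with a log2 fold change of 0.82 (adjusted p = 1.12e-06, edgeR, SE 0.10). Slfn4 was at the edge of detection, from 0 to 1.19 CPM across controls (median 0.381) and from 0 to 2.08 CPM across naive libraries (median 1.14). The groups overlapped, 1 library of each had no count, and the log2 fold change of -1.34 did not pass (SE 0.67, adjusted p = 0.0804, edgeR). Slfn4 passed without control 4, at -1.75 (adjusted p = 0.0293, edgeR), without naive 1, at -1.53 (adjusted p = 0.0188, edgeR), and with controls 1 and 2 alone, at -3.47 (adjusted p = 0.047, edgeR). It is a gene of myeloid cells, whose 13 monocyte and macrophage markers summed to 261 to 1013 CPM in control and 1040 to 1380 CPM in naive libraries with none at 0 throughout, and their part in its counts was not tested.

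The long members split. Slfn5 ran from 1.53 to 9.74 CPM across controls (median 4.83) and from 12.7 to 47.1 CPM across naive libraries (median 41.6), with no overlap. Its level was 6.48-fold lower in control (SE 0.34 on the log2 scale, adjusted p = 1.01e-06, edgeR). Slfn8 ran from 15.4 to 39.2 CPM across controls (median 24.7) and from 102 to 224 CPM across naive libraries (median 180), again apart, with a log2 fold change of -2.69 (adjusted p = 1.68e-09, edgeR, SE 0.20). Slfn9, its near copy, went the other way. It ran from 27.7 to 43.5 CPM across controls (median 33.8) and from 13.6 to 19.5 CPM across naive libraries (median 17.1), and its log2 fold change was 1.02 (SE 0.09, adjusted p = 1.85e-08, edgeR). All 6 calls held in each of 26 alternative settings. With trends on GC content and exon length removed, which moved the median of all genes to 0.22 and the share of higher calls to 63.1%, from 45.4% in the fit without it, Slfn2 stood at -0.49 and Slfn9 at 1.28.

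The annotation limits these counts. Slfn5 overlaps the antisense gene Slfn5os, and without stranded counting the 2 cannot be separated, although Slfn5os held at most 21 counts in any library. Windows of 50 bases that also occur in another annotated gene made up 15.4% of the longest Slfn8 transcript and 11.9% of that of Slfn9, and both share such windows with each other and with Slfn10-ps, so the split of reads between these copies is uncertain. The share was 18.5% for Slfn3 and 11.6% for Slfn4, which share windows with each other and with Slfn1. Slfn3 also shares windows with 67 genes outside the family, and Slfn4 with Slfn2 and 2 genes outside the family. For Slfn1 and Slfn2 the share was at most 4.27%, and Slfn2 shares windows with Slfn4 alone. For Slfn5 it was 11.8%, shared with 634 genes outside the family and with no Schlafen gene. Slfn10-ps itself averaged 25.4 ± 5.05 CPM in control and 36.6 ± 4.86 CPM in naive libraries (SD, n = 8 each), with a log2 fold change of -0.53 (adjusted p = 0.00087, edgeR, SE 0.12) that was lost without the length and GC trend, at -0.26 (adjusted p = 0.0577, edgeR). Slfn14, which acts on ribosomes in platelets and red cell precursors, had 6 counts in control 8 and none elsewhere, and Slfnl1 on chromosome 4 had none.

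**Figure D2:**
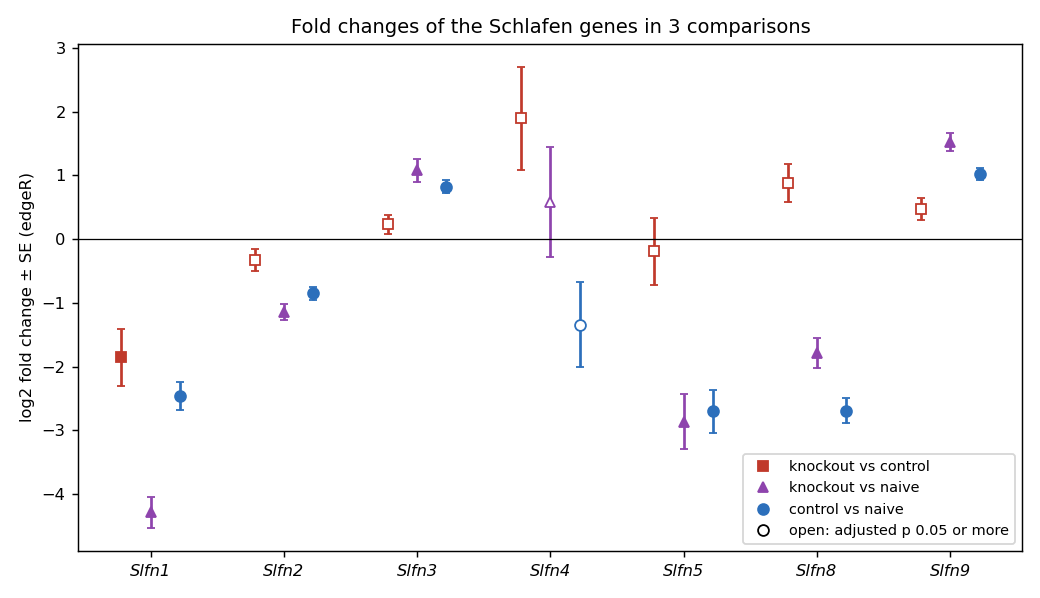
Log2 fold change with its SE for each member in knockout against control (squares), knockout against naive (triangles) and control against naive (circles). Filled symbols have an adjusted p under 0.05, so that between knockout and control only Slfn1 is filled, at -1.85.

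The 4 members that were lower in the controls stood among many genes of rest and of interferon response that were lower too. Of 26 measured regulators of T cell quiescence, 21 were called lower and 1, Klf4, higher, beside 39.0% and 32.5% of all genes tested. The median log2 fold change of the 26 was -1.13. Klf4 was near the floor of detection, at 0 to 0.646 CPM across controls and 0 to 0.226 CPM across naive libraries (adjusted p = 0.0455, edgeR). Btg1, an antiproliferative factor that helps keep naive T cells at rest, averaged 53.7 ± 14.0 CPM in control and 559 ± 82.5 CPM in naive libraries (log2 fold change -3.38, adjusted p = 4.15e-12, edgeR). Foxp1, a repressor of T cell activation, was 57.9 ± 8.33 CPM in control and 202 ± 30.7 CPM in naive libraries (log2 fold change -1.80, adjusted p = 3.7e-11, edgeR). Klf2, which drives the trafficking receptors of naive cells, did not pass, at 72.6 ± 28.1 CPM in control and 81.2 ± 29.9 CPM in naive libraries (adjusted p = 0.539, edgeR), nor did Tob1 at 17.1 CPM in both (all SD, n = 8 each).

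All 14 measured genes of type I interferon signalling and 23 of 25 interferon-stimulated effectors were called lower in control, beside 39.0% of all genes. The effectors had a median log2 fold change of -1.81, and Ifih1, a sensor of double-stranded RNA, was the single one called higher. Irf7, an interferon-induced transcription factor, was 66.5 ± 24.4 CPM in control and 346 ± 94.3 CPM in naive libraries (log2 fold change -2.38, adjusted p = 2.64e-08, edgeR, SD and n = 8 each). In a list on the cleavage and protection of transfer RNA, 4 of 8 measured genes were higher and 2 lower, a share called that is near the 71.5% of all genes. Rnh1, the ribonuclease inhibitor that holds angiogenin in check, averaged 193 ± 9.31 CPM in control and 120 ± 8.84 CPM in naive libraries (log2 fold change 0.69, adjusted p = 9.63e-10, edgeR, SD and n = 8 each).

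Between knockout and control, Slfn1 was the single member called, and it was lower. The background was 14.9% of 18651 genes, 7.24% lower and 7.62% higher. No member was called higher by edgeR, where 3 had an unadjusted p under 0.05 (Slfn4, Slfn8 and Slfn9), whereas DESeq2 called 2 higher (Slfn8 and Slfn9) and limma voom none. The groups did not overlap for 3 members, against 23.8% of all genes tested. The median log2 fold change was 0.23 over the members and -0.01 over all genes, and the share of higher calls among all genes, 51.3%, became 30.9% with the GC and length trends removed and 62.6% with voom. The sums of some marker lists of other cells differed between these groups. Of the natural killer cell markers 7 were tested and 0 called, and of the B cell markers 11 were tested and 1 called, as higher. The 8 natural killer cell markers summed to 576 to 657 CPM in knockout and 168 to 518 CPM in control libraries, with Klra8 at 0 in the controls, and the 13 B cell markers to 670 to 835 CPM in knockout and 396 to 476 CPM in control libraries. The part of such cells in the differences between knockout and control was not tested.

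Slfn1 stood at 14.4 and 13.1 CPM in the knockout libraries and at 24.1 to 80.6 CPM in the controls (median 47.1). Both knockout libraries lay under the lowest control. The log2 fold change was -1.85 (SE 0.45, adjusted p = 0.0187, edgeR), a level 3.61-fold lower in knockout. The direction was the same in each of 20 alternative settings, but the call was lost with voom, at -1.79 (adjusted p = 0.111, limma voom), against controls 1 and 2 alone, at -1.63 (adjusted p = 0.119, edgeR), and with either knockout library left out, at -1.94 without knockout 1 (adjusted p = 0.111, edgeR) and -1.77 without knockout 2 (adjusted p = 0.221, edgeR), where the lone library is assumed to vary like the controls. Slfn2, its nearest short relative, stood at 251 and 236 CPM in knockout and at 226 to 405 CPM in control libraries (median 297). Both lay inside the range of the controls, and the log2 fold change of -0.32 did not pass (SE 0.18, adjusted p = 0.249, edgeR).

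Slfn8 stood at 44.0 and 54.7 CPM in knockout and at 15.4 to 39.2 CPM in control libraries (median 24.7). Both knockout libraries lay above every control, yet the log2 fold change of 0.88 did not pass (SE 0.30, adjusted p = 0.0705, edgeR). It passed with DESeq2, at 0.90 (adjusted p = 0.02, DESeq2), with all 18 libraries in 1 fit, at 0.88 (adjusted p = 0.0405, edgeR), and without control 5, at 0.98 (adjusted p = 0.0438, edgeR). Slfn9 stood at 36.9 and 57.6 CPM in knockout and at 27.7 to 43.5 CPM in control libraries (median 33.8), so that only knockout 2 lay above the controls. Its log2 fold change of 0.48 did not pass (SE 0.17, adjusted p = 0.0811, edgeR), though it did with DESeq2, at 0.50 (adjusted p = 0.0339, DESeq2), without control 7, at 0.54 (adjusted p = 0.0436, edgeR), and without knockout 1, at 0.75 (adjusted p = 0.0225, edgeR). Slfn5, the remaining long member, stood at 4.87 and 4.74 CPM in knockout and at 1.53 to 9.74 CPM in control libraries (median 4.83), in the middle of the control range (adjusted p = 0.857, edgeR, log2 fold change -0.19, SE 0.53).

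Slfn3 stood at 8.20 and 11.4 CPM in knockout and at 6.77 to 9.95 CPM in control libraries (median 8.19), with knockout 2 above all controls and knockout 1 among them (log2 fold change 0.23, SE 0.15, adjusted p = 0.337, edgeR). Slfn4 stood at 1.75 and 1.41 CPM in knockout and at 0 to 1.19 CPM in control libraries (median 0.381), above all controls but not past the test (3.73-fold, SE 0.80 on the log2 scale, adjusted p = 0.138, edgeR). Its counts were 136 and 128 in knockout and 0 to 94 in control libraries. Beside this myeloid gene, the macrophage lysozyme gene Lyz2 stood at 47.2 and 22.2 CPM in knockout and at 3.78 to 22.3 CPM in control libraries, while the whole list of 13 monocyte and macrophage markers summed to 645 to 805 CPM in knockout and 261 to 1013 CPM in control libraries. Lyz2 did not pass (log2 fold change 1.66, SE 0.56, adjusted p = 0.0717, edgeR). Of 12 monocyte and macrophage markers tested, 0 were called, with a median log2 fold change of 0.14. The 10 neutrophil markers summed to 3.30 to 4.16 CPM in knockout and 0.094 to 3.36 CPM in control libraries, with Camp at 0 in every control. The 7 tested had a median log2 fold change of 1.88, and 0 were called, beside 14.9% of all genes. The part of such cells in the Slfn4 counts was not tested.

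The wider lists are read against the 7.62% of all genes called higher and 7.24% called lower between knockout and control. Of 26 quiescence regulators 4 were called higher, among them Runx1, Tcf7 and Ccr7 (named after their values were seen), and 1, Il7r, lower. Il7r, the receptor for the survival cytokine IL-7, stood at 31.3 and 38.1 CPM in knockout and at 46.1 to 99.2 CPM in control libraries, without overlap (log2 fold change -1.08, SE 0.22, adjusted p = 0.00711, edgeR). Of 14 genes of type I interferon signalling 2 were higher, the receptor chains Ifnar1 and Ifnar2, and 3 lower. Of 25 interferon-stimulated effectors only Ifit2 passed, as higher (log2 fold change 0.79, adjusted p = 0.00535, edgeR), while Irf7 did not, at 34.9 and 28.8 CPM in knockout and 38.2 to 99.1 CPM in control libraries (log2 fold change -1.06, SE 0.37, adjusted p = 0.0804, edgeR). Of 9 genes on transfer RNA cleavage 1, Rnh1, was lower (log2 fold change -0.31, adjusted p = 0.0125, edgeR).

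**Figure D3:**
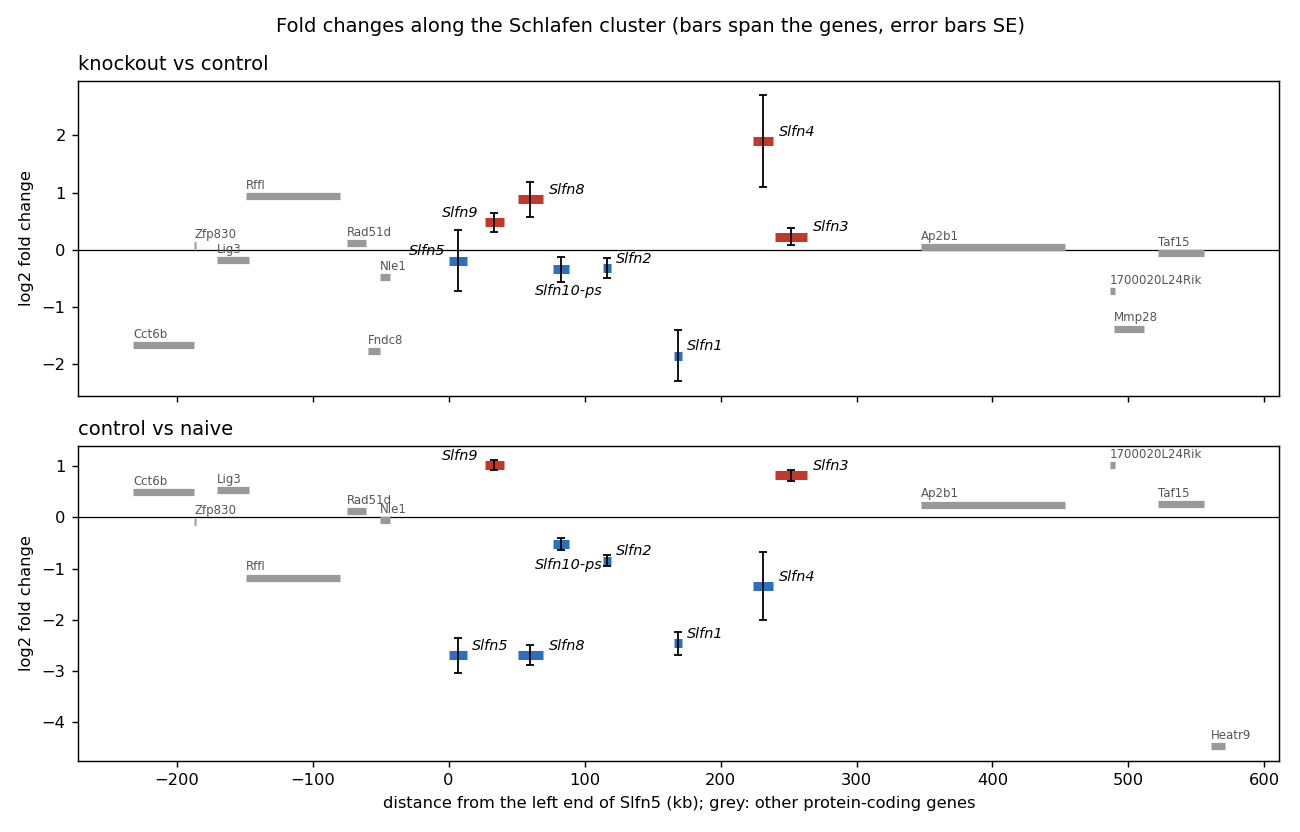
Log2 fold change of each gene along the cluster, in knockout against control above and control against naive below, with distance in kb from the left end of Slfn5 on the horizontal axis. Bars span the genes, Schlafen genes are red when above 0 and blue when below, other protein-coding genes are grey, and error bars are SE. Slfn9 and Slfn8, side by side, lie at 1.02 and -2.69 in the lower panel.

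Knockout against naive used libraries of both earlier comparisons, so its values are set beside theirs only. There 4 members were called lower and 2 higher, against 23.6% and 21.1% of 19776 genes, and 6 of 7 members had no overlap, against 46.4% of all genes. Slfn1 had the largest fold of the 7, at -4.28 on the log2 scale (SE 0.24, adjusted p = 1.51e-07, edgeR), which is 19.5-fold lower in knockout. The knockout libraries at 14.4 and 13.1 CPM lay far under the naive range of 192 to 374 CPM. Slfn5 was at -2.86 (SE 0.43, adjusted p = 0.000188, edgeR), Slfn8 at -1.78 (SE 0.23, adjusted p = 6.97e-05, edgeR) and Slfn2 at -1.14 (SE 0.13, adjusted p = 2.47e-05, edgeR). Slfn9 was higher at 1.52 (SE 0.14, adjusted p = 6.61e-06, edgeR), as was Slfn3 at 1.08 (SE 0.18, adjusted p = 0.00038, edgeR), and Slfn4 did not pass at 0.58 (SE 0.86, adjusted p = 0.621, edgeR).

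The make-up of the family differed between groups. Summed over the 7 members, the level was 178 ± 1.98 CPM per kb in knockout, 226 ± 48.6 in control and 531 ± 74.7 in naive libraries (SD, n = 2, 8 and 8). Slfn2 supplied 82.3 ± 2.66% of that sum in knockout, 81.6 ± 2.83% in control and 62.5 ± 2.45% in naive libraries. Slfn1 supplied 4.15 ± 0.243% in knockout, 11.4% (6.89 to 15.0%) in control and 27.6 ± 1.74% in naive libraries, with no overlap between any pair of groups. Slfn8 supplied 6.79 ± 1.12% in knockout, 2.85 ± 0.604% in control and 7.94 ± 0.943% in naive libraries, so that both knockout libraries lay above the controls, at 2.01 to 3.99%, and knockout 2 within the naive range of 6.16 to 9.01%. Slfn9 supplied 4.46 ± 1.43% in knockout, 2.59 ± 0.545% in control and 0.537 ± 0.086% in naive libraries.

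The balance between the near copies Slfn8 and Slfn9 differed with it. The ratio of Slfn8 to Slfn9, each per kilobase, was 1.74 and 1.38 in knockout libraries, 0.636 to 1.54 in controls (median 1.15) and 10.9 to 22.5 in naive libraries (median 14.5). The naive libraries stood apart from all others, and the knockout libraries overlapped the controls.

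**Figure D4:**
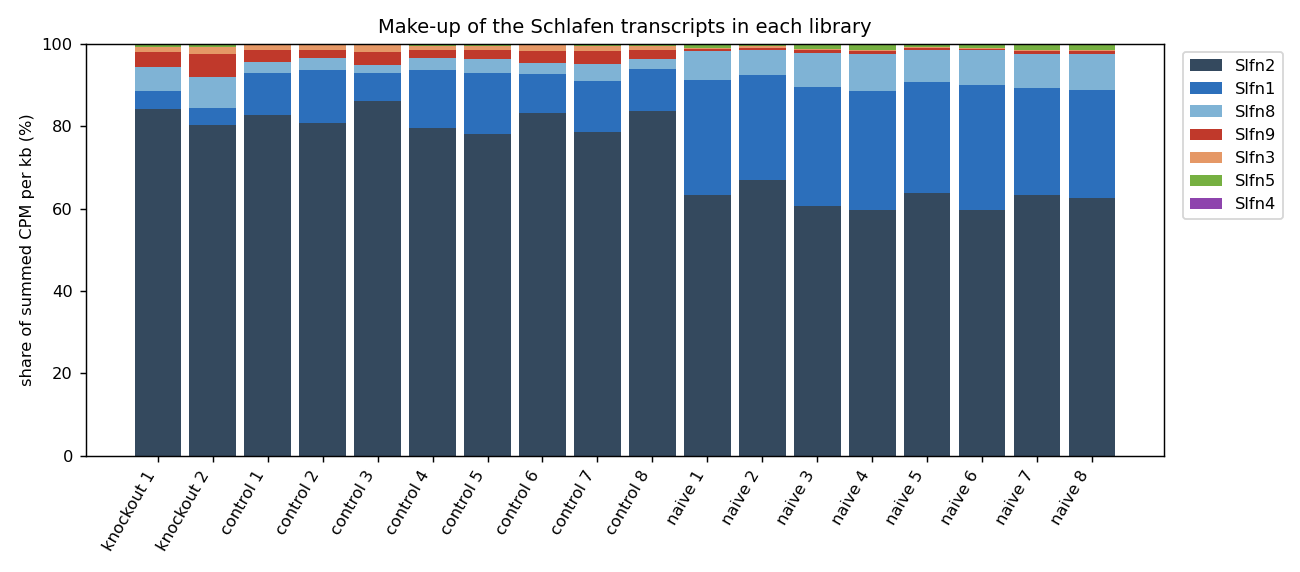
Share of each member in the summed CPM per kb of the 7 members, 1 bar per library, for 2 knockout, 8 control and 8 naive libraries. Slfn2 makes up 82.3%, 81.6% and 62.5% on average, and the Slfn1 segment is widest in the naive bars.

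Among the controls the members that were high in naive cells varied together, and among the naive libraries they did so only in part. Controls 4 and 5 were the 2 highest and controls 1 and 3 the 2 lowest of 8 for each of Slfn1, Slfn2, Slfn5 and Slfn8. Slfn5 spread most among these, with a coefficient of variation of 54.0% in control, and Slfn2 least, with 19.1%. Irf7 followed a like order, at 99.1 and 91.8 CPM in controls 4 and 5 and 38.2 and 38.4 CPM in controls 1 and 3. In the naive group, library 2 was the lowest for Slfn1, Slfn2, Slfn5, Slfn8 and Slfn9, and Irf7 was lowest there as well, at 198 CPM. Naive 6 was the highest for Slfn1, Slfn2 and Slfn8, and Irf7 reached 533 CPM in it. Slfn5 departed from them, with naive 7 highest and naive 5 among its 2 lowest. For Slfn1 and Slfn2, naive 5 was among the 2 highest. Slfn3 and Slfn9 did not share the order of the controls, with control 3 highest for Slfn3 and control 7 for Slfn9.

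**Figure D5:**
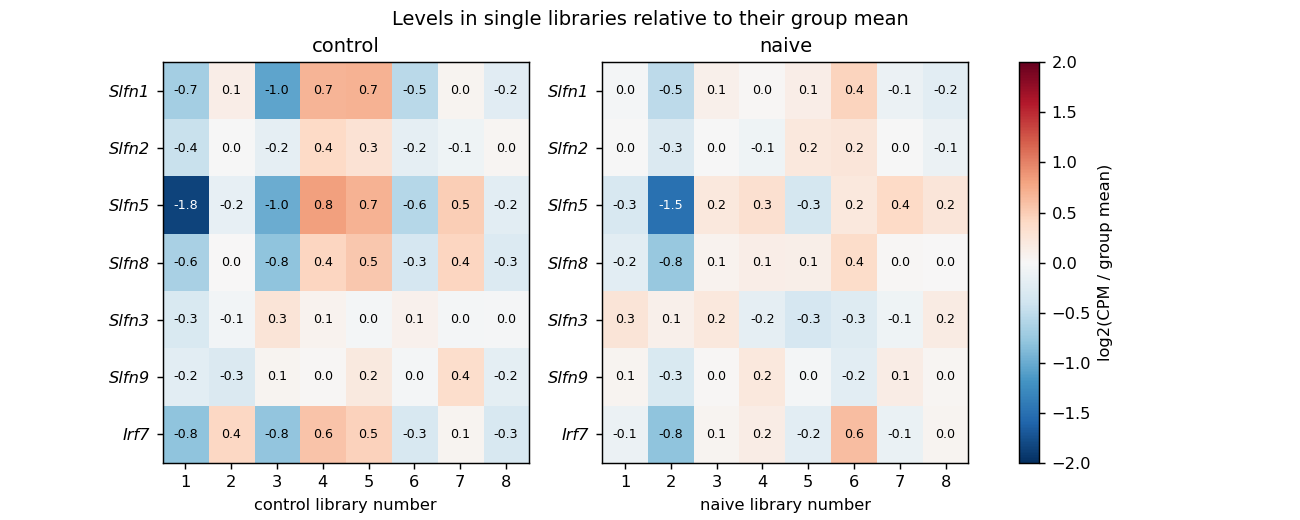
Log2 of the level in each control and each naive library over the mean of its own group, for 6 Schlafen genes and Irf7 (rows), with library number across. Blue marks libraries below and red above their group mean. Controls 1 and 3 and naive 2 are blue for Slfn1, Slfn5, Slfn8 and Irf7.

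Likeness of pattern was measured as the root mean square difference of centred log2(CPM + 0.1) over all 18 libraries, among 7346 protein-coding genes with a log2 mean CPM of at least 4. The gene nearest to Slfn1 was Irf7 (difference 0.324, against 1.59 for Slfn1 with a flat line), followed by Tgtp2, a T cell GTPase induced by interferon (0.389). Nearest to Slfn5 were Gbp6 (0.344), a guanylate-binding protein, and Rsad2 (0.361), the antiviral enzyme viperin. Nearest to Slfn8 was Ifi214 (0.208), of the interferon-inducible DNA sensor family. Ifi214 averaged 39.3 ± 4.07 CPM in knockout, 23.5 ± 9.15 CPM in control and 156 ± 30.5 CPM in naive libraries (SD, n = 2, 8 and 8). Nearest to Slfn2 were Pnrc2 (0.132) and Inpp5k (0.135), to Slfn3 Fam129a (0.126) and Hyls1 (0.133), and to Slfn9 the nuclear import gene Kpna3 (0.169) and Mmd (0.172). Slfn4 had no close partner, its nearest being Lyz2 at 0.904. Among the members, Slfn3 and Slfn9 were the closest pair (0.261), then Slfn5 and Slfn8 (0.478), and Slfn1 and Slfn9 the farthest (2.14). The 18 libraries fall into 3 groups, whose means enter every such difference, so these values describe these libraries only.

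The transcript table offered little beyond the gene level. Slfn1 and Slfn2 have 1 annotated transcript each, and only 1 Slfn4 transcript had counts. For Slfn3, Slfn5, Slfn8 and Slfn9 the share of the leading transcript was compared in 8 exact two-sided permutation tests, and none passed after Benjamini-Hochberg adjustment. The smallest p that the design allows is 0.000155 for 8 against 8 and 0.0222 for 2 against 8 libraries. Slfn8-201 held 48.3 ± 32.6% of the Slfn8 counts in control and 74.4 ± 7.58% in naive libraries (SD, n = 8 each, exact permutation p = 0.0517, adjusted p = 0.414). Its share ran from 0% in control 3 to 84.8% in control 5, against 63.6 to 83.7% in naive libraries, so the spread of the controls covered the difference. Slfn9-201 held 79.6 ± 4.86% of the Slfn9 counts in control and 82.0 ± 6.54% in naive libraries (SD, n = 8 each, exact permutation p = 0.425, adjusted p = 0.747).

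Of 16 other protein-coding genes within 300 kb on either side, 11 were tested between control and naive, of which 5 were higher and 3 lower, beside 32.5% and 39.0% of all genes. Between knockout and control 12 were tested, of which 1 was higher and 3 lower, beside 7.62% and 7.24% of all genes. Their median log2 fold changes were 0.12 and -0.33. Rffl, a ubiquitin ligase gene, was the neighbour higher in knockout, at 17.0 and 24.4 CPM in knockout and 7.77 to 12.7 CPM in control libraries (log2 fold change 0.93, SE 0.17, adjusted p = 0.00421, edgeR). Like Slfn8, it was lower between control and naive, at 10.8 ± 1.62 CPM in control and 24.6 ± 4.85 CPM in naive libraries (SD, n = 8 each, log2 fold change -1.18, adjusted p = 7.67e-08, edgeR).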

How the data were processed

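Total RNA from a QIAGEN micro kit went into a low-input polyA library kit (SMARTer), per the labels' protocols. The deposited tables hold estimated counts per gene and per transcript, written by the authors as whole numbers. Per the submitters' processing notes, the tools were DESeq2 1.30.1 in R 4.0.5, StringTie 2.1.0, SAMtools 1.9 and STAR 2.7.1a, and the builds mm10 and mm39 are named with no role. All 55536 Ensembl identifiers are in GENCODE M21, so coordinates are GRCm38. Rows naming no gene (26345 of 81881, with 0.0513 to 0.132% of the counts) were left out, and 0 columns of samples stayed unmapped.

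Each comparison was fitted on its own groups with edgeR 4.0.16 in R 4.3.3 (filterByExpr with a minimum count of 10, TMM, robust quasi-likelihood test, prior count 2). P-values were adjusted by Benjamini-Hochberg over all genes tested and called under 0.05, and the fit was tested on simulated data. SD is over libraries, and SE belongs to the log2 fold change. Alternatives were limma 3.58.1 voom with sample quality weights, DESeq2 1.42.0, total counts or RLE factors in place of TMM, no filter on low counts, all groups in 1 fit, a replicate block, removal of trends on GC content and exon length, leaving out each library, and controls 1 and 2 left out or kept alone. Per-kilobase levels were also computed on the longest transcript and on total counts. Counts carry no molecular identifiers. Promoters are from RefSeq and coding sequences from GENCODE M21, aligned with Biopython 1.88. Coding sequences stand in for proteins, which were not analysed here.

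Named genes are the 7 members and the other Schlafen genes, fixed names from 3 lists and from cell markers, protein-coding genes within 300 kb of the cluster, and the 2 genes most like each member, of which a few are not reported here. Other list genes are named where 5 or fewer passed, after their values were seen. The members, lists and rules were chosen with earlier results of these data known.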

Additional observations from a re-analysis of the deposited data

Results flagged for a closer look

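In 24 groups of 8 libraries (Schlafen gene levels and transcript shares in control and in naive), a library at either end was compared with the rest by Dixon's ratio of its gap to the whole range and its critical value at 95%, which chance passes in about 1 of 20 groups. It was passed 3 times. Slfn4 in control 4 stood at 1.19 CPM, above the other controls (ratio 0.556). The pseudogene Slfn10-ps in control 1 stood at 14.0 CPM, under the other controls (ratio 0.666). Without that library Slfn10-ps was called lower in knockout than in control, at -0.43 (adjusted p = 0.0212, edgeR), against -0.34 (adjusted p = 0.322, edgeR) with it. The share of Slfn3-202 in the Slfn3 counts was 6.86% in naive 1, under the other naive libraries (ratio 0.668).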

How the results depend on the processing

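Between control and naive, 11976 to 12243 genes and 6 to 7 members were called with a library left out, between knockout and naive 6766 to 8986 genes and 6 members, and between knockout and control 651 to 2858 genes and 0 to 2 members. That comparison rests most on knockout 2: without it 651 genes and 0 members were called. The count of members called there, 1 in the reported fit, was 3 with DESeq2, 2 with all groups in 1 fit, 2 without control 5 or control 7, 0 with voom and 0 with controls 1 and 2 alone, where 5 genes were called. Directions turned in results that never passed: Slfn3 in knockout against control was -0.012 without knockout 2 and 0.44 without knockout 1, and Slfn5 was 0.59 against controls 1 and 2 alone. Slfn4, which did not pass there either, was 4.07 against controls 1 and 2 alone (adjusted p = 0.167, edgeR) and 4.31 with the replicate number as a block (adjusted p = 0.176, edgeR). The Slfn5-201 share in knockout minus control turned to 7.33 points without knockout 2 (-8.88 without knockout 1), 0.139 without control 1, 0.194 without control 8 and 1.05 without controls 1 and 2, and that of Slfn9-201 to -1.98 points without knockout 2 (9.74 without knockout 1). On the longest transcript, Slfn3 was 2.95 CPM per kb in control and 1.66 in naive, and Slfn5 0.804 in knockout, or 0.744 with total counts. The cause was not tested. The share of higher calls between knockout and naive, 47.3%, was 62.8% with the GC and length trends removed, and total counts moved the median of all genes there to -0.19, against -0.08.

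The labels do not say whether replicate numbers pair the libraries. Residuals of same-numbered control and naive libraries correlated at -0.025 to 0.032 over 20750 genes, with 1 of 8 highest for its own number. Those of knockout and control correlated at 0.010 and 0.051, with 1 of 2 highest for its own number. These values show no pairing but cannot settle its absence. With the number as a block, which keeps 2 libraries a group, knockout against control gave 0 genes and 0 members, Slfn1 at -1.57 (adjusted p = 0.145, edgeR) and Slfn5 at 0.79, and knockout against naive 2542 genes, with Slfn3 at 0.85 (adjusted p = 0.0895, edgeR). Between control and naive the block changed no call of a member. Slfn4, at 0 to 156 counts, is limited by depth.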
